A study of Drosophila melanogaster with 8 samples.

Results

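Neprilysins are zinc metallopeptidases of the M13 family. Most sit in the plasma membrane with the catalytic domain outside the cell, where they cleave short signalling peptides, and some act as soluble enzymes. Flies have several classical neprilysin genes (*Nep*) and a larger group of neprilysin-like genes (*Nepl*), and *Drosophila* neprilysins are known for roles in fertility, memory and the turnover of neuropeptides and muscle micropeptides. The 8 genes described here are *Nep1*, *Nep2*, *Nep3*, *Nep4*, *Nep5*, *Nepl13*, *Nepl18* and *Nepl21*. They were taken by symbol, and 7 of them are rows among the 12610 genes of the matrix. No row was found for *Nep5* in the matrix used here, so it is named only.

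The data are single-nucleus RNA-seq of whole wandering larvae of the strain w1118, collected 5 days after egg deposition. All 8 samples share strain, age and handling. For each, nuclei of 16 pooled larvae (8 of either sex) were sorted and made into 1 droplet library with the 10x 3′ chemistry. The 30819 nuclei fall into 28 clusters named by the study, of which 8 are called mixed. Comparisons are therefore between tissues within the same larvae. Fat body (clusters 4, 13 and 15, 3429 nuclei) is set against muscle (cluster 23, 401 nuclei), neurons (clusters 6, 10, 17, 20 and 25, 4080 nuclei) and all other nuclei (27390 nuclei, mixed clusters included). The study made the clusters from the same counts, so a test between clusters is no independent evidence of a cell type.

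Libraries held 3090 to 5405 nuclei and 3815620 to 6488760 counts corrected for ambient RNA, with a median of 804 to 1069 counts per nucleus. Library 2 stood apart. It held 14 fat body nuclei with 9105 counts, against 304 to 683 nuclei in each of the other libraries. The 5 fat body markers (*Fbp1*, *Fbp2*, *Lsp1beta*, *Lsp2* and *apolpp*) summed to 9450 CPM (counts scaled to the total of each sum) in those 14 nuclei, against 131556 to 155290 CPM in the fat body of the other libraries. The 4 larval cuticle genes used as epidermis markers summed to 59257 CPM there. These nuclei thus go against their fat body name, and fat body values are given with and without library 2. Muscle was also thin, with 7 nuclei in library 7. In all, 2236 nuclei (7.26%) carried a barcode that occurs in more than 1 library, including 1.55% of fat body nuclei, 52 of 401 muscle nuclei, 0.760% of neuron nuclei and 25.8% of the nuclei of the mixed clusters.

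*Nepl21* was the clearest fat body gene of the group. It lies on chromosome arm 3R (28883693 to 28886015, plus strand, BDGP6.54) and is the last gene of a run of neprilysin-like genes. In fat body it reached 333, 321, 316, 275, 275, 270 and 212 CPM in 7 libraries and 0 CPM in library 2, where 3 counts would amount to 329 CPM. Muscle ranged from 0 to 22.2 CPM with a median of 0, and neurons from 0.0219 to 9.03 CPM with a median of 4.59. Fat body was thus high in 7 libraries and overlapped the other tissues only through library 2. *Nepl21* had 1178 counts in fat body, 83.7% of its 1406 counts in all nuclei. Summed over libraries its level was 286 CPM in fat body, 25.3 times that in muscle (11.3 CPM) and 66.5 times that in neurons (4.29 CPM).

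*Nepl13* (3R, 22758810 to 22761076, minus strand) averaged 51.6 ± 24.2 CPM in fat body (SD, n = 8) and 58.9 ± 13.3 CPM without library 2. Its fat body values ran from 0 through a median of 55.8 to 78.4 CPM. It had 0 counts in muscle in all libraries, and in neurons it ran from 0 to 4.31 CPM. Summed over libraries, *Nepl13* stood at 60.7 CPM in fat body. Against the 3 counts that a 0 allows over all muscle nuclei (5.30 CPM), that was at least 11.4-fold higher than in muscle.

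*Nepl18* (3R, 28875621 to 28877805, plus strand) lies in the same run of genes as *Nepl21*. It averaged 33.6 ± 17.1 CPM in fat body (SD, n = 8) and 38.5 ± 11.2 CPM without library 2. The fat body values ran from 0 through a median of 36.7 to 53.5 CPM, against 0 counts in muscle and 0 to 3.37 CPM in neurons. Its summed fat body level of 39.5 CPM was at least 7.45-fold higher than in muscle. Without library 2, every fat body library lay above every muscle and every neuron library for *Nepl13*, *Nepl18* and *Nepl21*. Such a gap was found for 10.2% of genes against muscle and 10.9% against neurons. Against all other nuclei the same 3 genes showed such a gap too (7.18% of genes did). With library 2 included, no member lay above the other nuclei in every fat body library (2.57% of genes did against muscle, 4.28% against neurons and 1.45% against all other nuclei). With all libraries, *Nep3* lay below neurons in every fat body library (17% of genes did) and *Nep1* below all other nuclei (19.9%), while no member did so against muscle (2.17%).

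**Figure D1:**
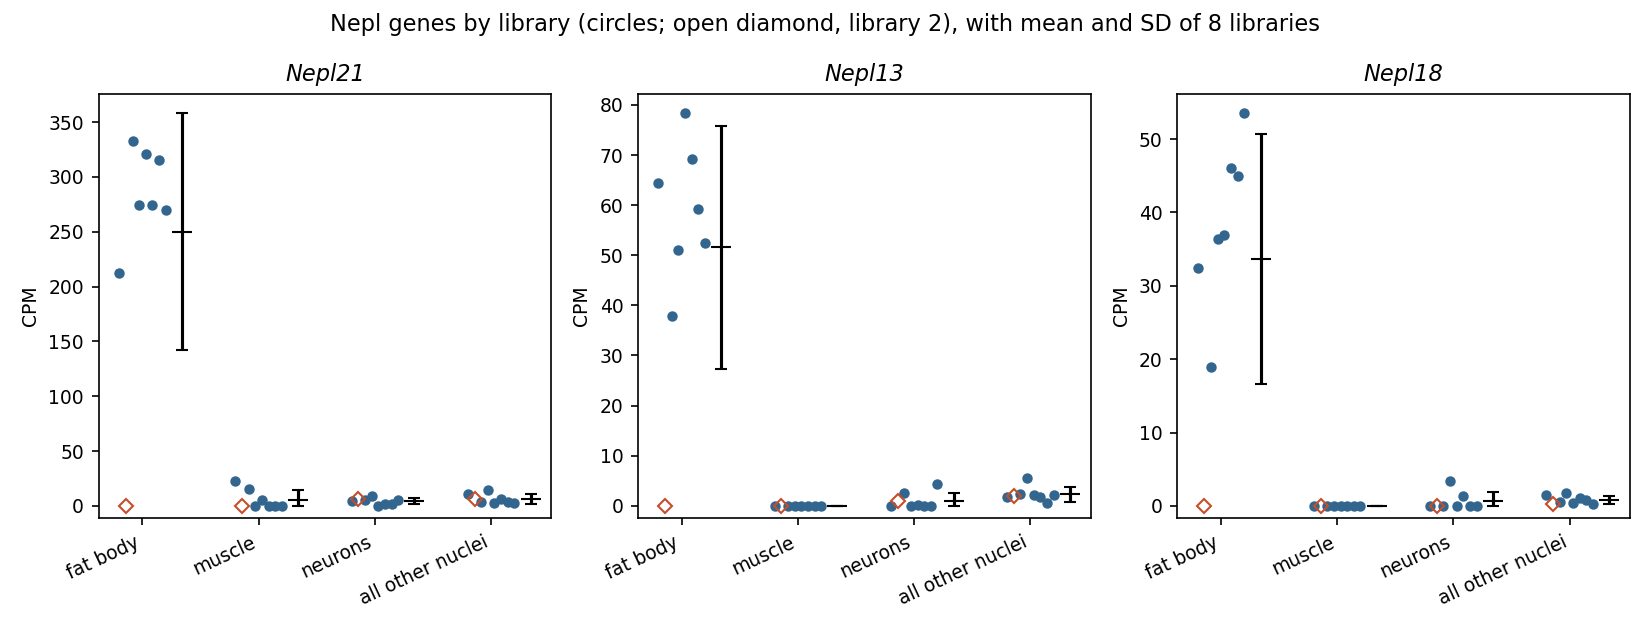
CPM of *Nepl21*, *Nepl13* and *Nepl18* (y axes) in fat body, muscle, neurons and all other nuclei (x axes). Each point is a library, the open diamond is library 2, and the bar gives mean and SD of 8 libraries. For *Nepl21*, 7 fat body libraries sit between 212 and 333 CPM and library 2 at 0, while no muscle library exceeds 22.2 CPM.

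The share of nuclei with the transcript was low even in fat body, as is usual at this depth. *Nepl21* was above 0 in 24.6% of fat body nuclei, against 2.49% of muscle, 1.45% of neuron and 2.27% of all other nuclei. After thinning each nucleus to 300 UMIs, these shares were 7.72% in fat body, against 0.310% in muscle and 0.0804% in neurons, with 280, 23 and 25 shallower nuclei left out. The median depth after rounding was 919 UMIs in fat body, against 722 in muscle and 894 in neurons. *Nepl13* was above 0 in 6.88% and *Nepl18* in 4.49% of fat body nuclei, against 0 of 401 muscle nuclei for both, which allows a share of nuclei with a UMI of up to 0.748% and sets no limit on nuclei that carry the transcript. No expression is read from the low shares in neurons, and the part of free RNA in them was not tested.

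The edgeR test of fat body against muscle covered 1683 genes, and none of the 7 measured members passed its filter on low counts, so 0 were called (48.3% of tested genes were called higher and 33.9% lower). The filter asks for a minimum level in as many sums as the smaller group has. Library 2 holds none of the members in fat body, but without it only *Nepl21* and *Nepl13* passed. An exact paired permutation test of CPM over the 8 libraries, added after the data were seen and computed for 21 member comparisons, gave p = 0.0156 (two-sided) for *Nepl21*, *Nepl13* and *Nepl18* in fat body against muscle, with 7 of 8 libraries higher and library 2 tied. The smallest p it allows is 0.00781. Without library 2, edgeR tested *Nepl21* and *Nepl13* and called both higher, at log2 fold changes of 6.64 ± 0.53 (SE, adjusted p = 4.04e-10) and 7.74 ± 0.68 (adjusted p = 2.91e-08). In that fit 56.2% of genes were called higher and 31.1% lower. Muscle held 0 counts of *Nepl13* and 6.40 of *Nepl21*, so both passed the filter through fat body. A call of higher then follows from entry and is no further support. Scaling moved the balance of calls in the full fit, with 58.7% of them higher under TMM, 70.2% under DESeq2 size factors and 37.7% under summed counts. The fitted *Nepl13* value depends on the prior count, since muscle has no count of it.

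With no filter on low counts, edgeR called 4 members higher in fat body than in muscle (30.3% of genes) and 1 lower (10.6%). The higher ones were *Nepl13*, *Nepl18*, *Nepl21* and *Nep2*. The *Nep2* log2 fold change was 1.49 ± 0.60 (adjusted p = 0.0326), beside a median of 1.19 over all genes, and its summed level was 34.2 CPM in fat body and 36.7 CPM in muscle. *Nep3* was called lower, at -2.48 ± 0.69 (adjusted p = 0.00155). The exact permutation test of CPM gave p = 0.953 (two-sided) for *Nep2*, with 4 of 8 libraries higher in fat body and 3 lower. For *Nep3* the exact permutation test gave p = 0.25 (two-sided), with 3 of 8 libraries lower in fat body and 2 higher. Thus for *Nep2* and *Nep3* the exact permutation test did not detect a difference from muscle. For *Nep3* it cannot decide, since in the muscle libraries at 0 CPM, 3 counts would amount to 113 to 366 CPM. Its summed level was 36.6 CPM in muscle and 1.56 CPM in fat body.

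Against neurons, 2 members passed the filter. *Nep2* was called higher in fat body (36.4% of the 3734 genes tested were) and *Nep3* lower (51.6% were). *Nep2* encodes a neprilysin known for the breakdown of tachykinins. Its fat body values ran from 0 through a median of 30.3 to 40.6 CPM, against 0, 7.15 and 21.2 CPM in neurons. Without library 2, every fat body library lay above every neuron library (10.9% of genes did). The log2 fold change was 3.49 ± 0.35 (adjusted p = 3.67e-09), while the ratio of summed CPM was 4.18. The median of all genes in this fit was -0.81, and scaling by summed counts alone moved it by -1.41 and the share of calls that were higher to 28.3%, against 41.4% under TMM. With no filter, *Nepl21*, *Nepl13* and *Nepl18* were also called higher in fat body, at log2 fold changes of 6.56, 6.50 and 5.92 (28% of genes were called higher and 32.2% lower). Without library 2 and with the filter, all 3 were called higher too (38.9% of genes were called higher and 52.8% lower). In neurons none of the 3 exceeded 9.03 CPM in any library, so they passed that filter through fat body. A call of higher then follows from entry and is no further support.

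*Nep3* had the opposite pattern, with 52.2% of its counts in neurons. It lies on X (19961297 to 19969323, plus strand). It reached 0 to 5.11 CPM in fat body with a median of 0.696 CPM, against 25.7 to 55.1 CPM in neurons with a median of 33.5 CPM. Every neuron library lay above every fat body library (17% of genes did). The log2 fold change in fat body against neurons was -2.77 ± 0.44 (adjusted p = 2.94e-06), and the summed neuron level was 22.7 times that of fat body. The exact permutation test gave p = 0.00781, the smallest it allows, with 8 of 8 libraries lower in fat body.

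Within neurons *Nep3* was uneven. Clusters 10, 25 and 6 stood at 55.8, 51.2 and 46.5 CPM summed over libraries, and clusters 17 and 20 at 5.08 and 2.53 CPM. Their means over libraries were 54.8 ± 27.3, 81.1 ± 79.4 and 47.1 ± 23.2 CPM in clusters 10, 25 and 6 (SD, n = 8), so these 3 do not differ beyond their spread. *Nep3* was called higher against all other nuclei in clusters 6 (log2 fold change 2.75, 16.5% of genes called higher), 10 (2.90, 15.9%), 25 (2.79, 11.6%), muscle cluster 23 (2.33, 10.4%) and eye disc cluster 26 (1.73, 10.8%). Cluster 26 also carried neuron markers at 11600 CPM, above the 4169 CPM of all neuron clusters together. In muscle *Nep3* was seen in 3 libraries, at 35.6, 51.5 and 46.2 CPM, and at 0 in the other 5, each of which had at most 41 muscle nuclei. Myoblasts held 18.3 CPM.

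**Figure D2:**
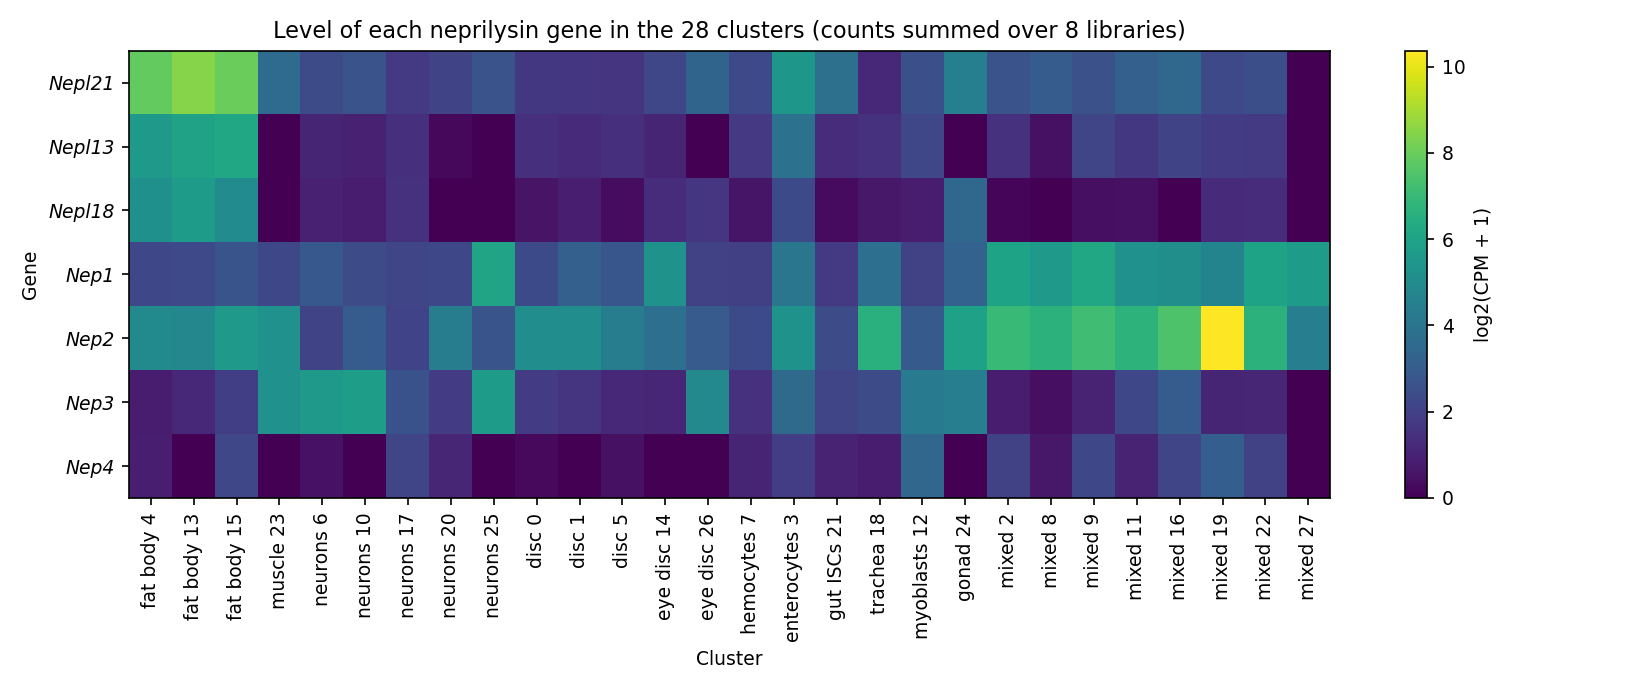
Level of each measured neprilysin gene (rows) in the 28 clusters (columns, with the study's name and the cluster number), as log2(CPM + 1) of counts summed over 8 libraries. The 3 *Nepl* genes are highest in fat body clusters 4, 13 and 15, *Nep3* in neuron clusters 6, 10 and 25, and *Nep2* in mixed cluster 19 at 1321 CPM.

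Against all other nuclei, 5 members passed the filter among 7472 genes. *Nepl21* and *Nepl13* were called higher in fat body (32.0% of genes were), and *Nep1* and *Nep3* lower (41.9% were). The log2 fold changes were 6.32 ± 0.50 for *Nepl21* (adjusted p = 2.11e-09) and 5.53 ± 0.34 for *Nepl13* (adjusted p = 2.32e-10), beside a median of -0.29 over all genes. DESeq2 size factors moved that median by 0.63 and summed counts by -0.90, less than these changes. The share of calls that were higher was 43.3% under TMM, 57.6% under DESeq2 and 22.8% under summed counts. *Nepl18* was tested in 4 alternative fits and called higher in all of them, at 6.04 to 6.70. In the fit with no filter 20.4% of genes were called higher and 35.9% lower, and without library 2 31.3% were called higher and 41.4% lower. The summed level of *Nepl18* was 39.5 CPM in fat body, 48.8 times the 0.810 CPM of all other nuclei. Fat body held 83.7%, 75.0% and 85.5% of the counts of *Nepl21*, *Nepl13* and *Nepl18*. Where the filter was used, they entered mainly through fat body, so these calls add no support beyond the levels.

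*Nep1* (X, 6091205 to 6103971, plus strand) fell by 1.62 ± 0.52 on the log2 scale in fat body (adjusted p = 0.00799), and *Nep3* fell by 1.41 ± 0.49 (adjusted p = 0.0134). DESeq2 did not call either (adjusted p up to 0.0524 for *Nep1* and 0.221 for *Nep3* over the alternatives), and without library 4 *Nep3* stood at -0.89 and was not called. With the mixed clusters left out, neither gene passed the filter, so neither was tested there. Those clusters held 73.6% of the *Nep1* counts. *Nep1* had 4.34 CPM in fat body and 23.9 CPM in all other nuclei. *Nep2* was not called, at -0.45 ± 0.41 (adjusted p = 0.318). Its CPM was lower in fat body in 8 of 8 libraries (exact permutation p = 0.00781, two-sided), at 28.7 ± 12.9 CPM in fat body and 81.2 ± 58.1 CPM in all other nuclei. With the mixed clusters left out of the other nuclei the *Nep2* log2 fold change was 1.28 and called higher, and with summed counts as the scaling it was -1.30 and called lower, so no direction held.

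**Figure D3:**
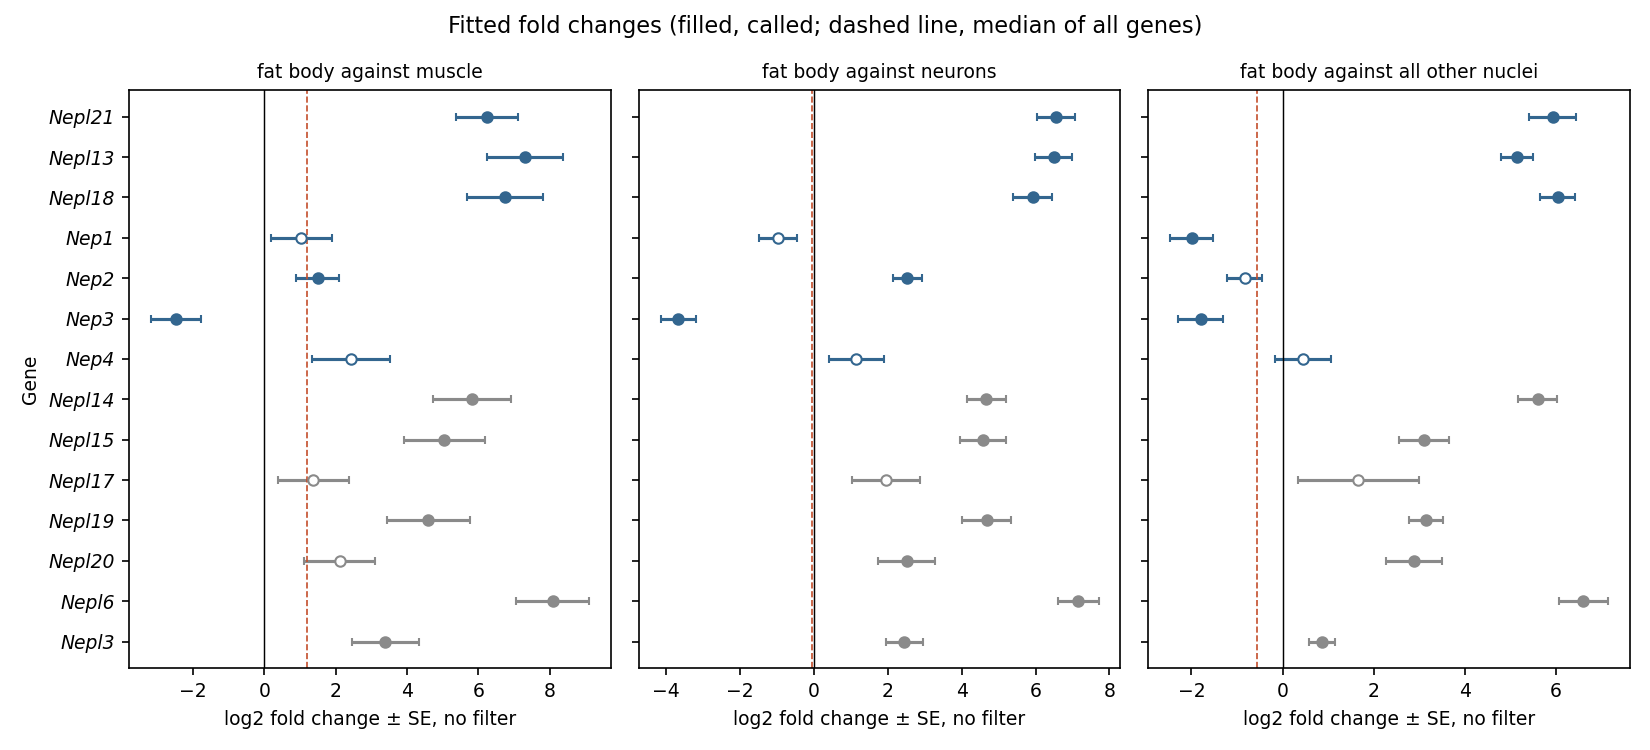
Log2 fold change ± SE (x axis) of fat body against muscle, neurons and all other nuclei with no filter on low counts, for 7 measured members (blue) and 7 related genes (grey). Filled points were called and the dashed line is the median of all genes. *Nepl21*, *Nepl13* and *Nepl18* lie between 5.14 and 7.31 in each panel.

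The 3 fat body clusters all held the 3 *Nepl* genes, and each gene was called higher in clusters 4, 13 and 15 against all other nuclei (16.8%, 19% and 22.8% of genes were called higher there). *Nepl18* passed the filter in 5 and *Nepl13* in 17 of the 28 cluster fits, so entry leaned on fat body counts. These calls add no support beyond the levels. The reference of each fit also holds the other fat body clusters. *Nepl21* stood at 232 CPM in cluster 4, 354 CPM in cluster 13 and 257 CPM in cluster 15, summed over libraries. Without library 2 the means were 228 ± 25.5, 351 ± 51.3 and 201 ± 97.9 CPM (SD). Every library but library 2 was higher in cluster 13 than in cluster 4. The edgeR difference of cluster 4 against 13 was -0.52 ± 0.16 and not called (adjusted p = 0.192, 0 of 1035 genes and so 0.0% called by edgeR in either direction, 57 with an unadjusted p under 0.05, 2 called by DESeq2). With the library as a block the adjusted p was 0.00255 at -0.51, under the size of 0.54 that a call needs, and 45 genes were called. Without library 2 it was called, at -0.58.

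Cluster 15 had few nuclei in some libraries, with 19, 30 and 28 in libraries 3, 7 and 8, where *Nepl21* stood at 106, 202 and 58.6 CPM. Its differences from clusters 4 and 13 were not called by edgeR (0.80 ± 0.35, adjusted p = 0.0635, for cluster 4 against 15, and 0.75 ± 0.33, adjusted p = 0.0868, for cluster 13 against 15). In these fits 39.0% and 8.61% of genes were called higher and 9.9% and 21.2% lower. With the library as a block the difference of cluster 4 against 15 was called, at 0.96 (adjusted p = 0.0349), and without library 5 both were called, at 1.11 and 1.70. Without library 2 the value was 0.12 for cluster 4 against 15, and with summed counts as the scaling it was -0.17, so neither its size nor its direction held. For cluster 13 against 15 it was 0.74 without library 2 and called (adjusted p = 0.0210). *Nepl13* did not differ detectably between clusters 13 and 15 (-0.12 ± 0.28, adjusted p = 0.998).

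**Figure D4:**
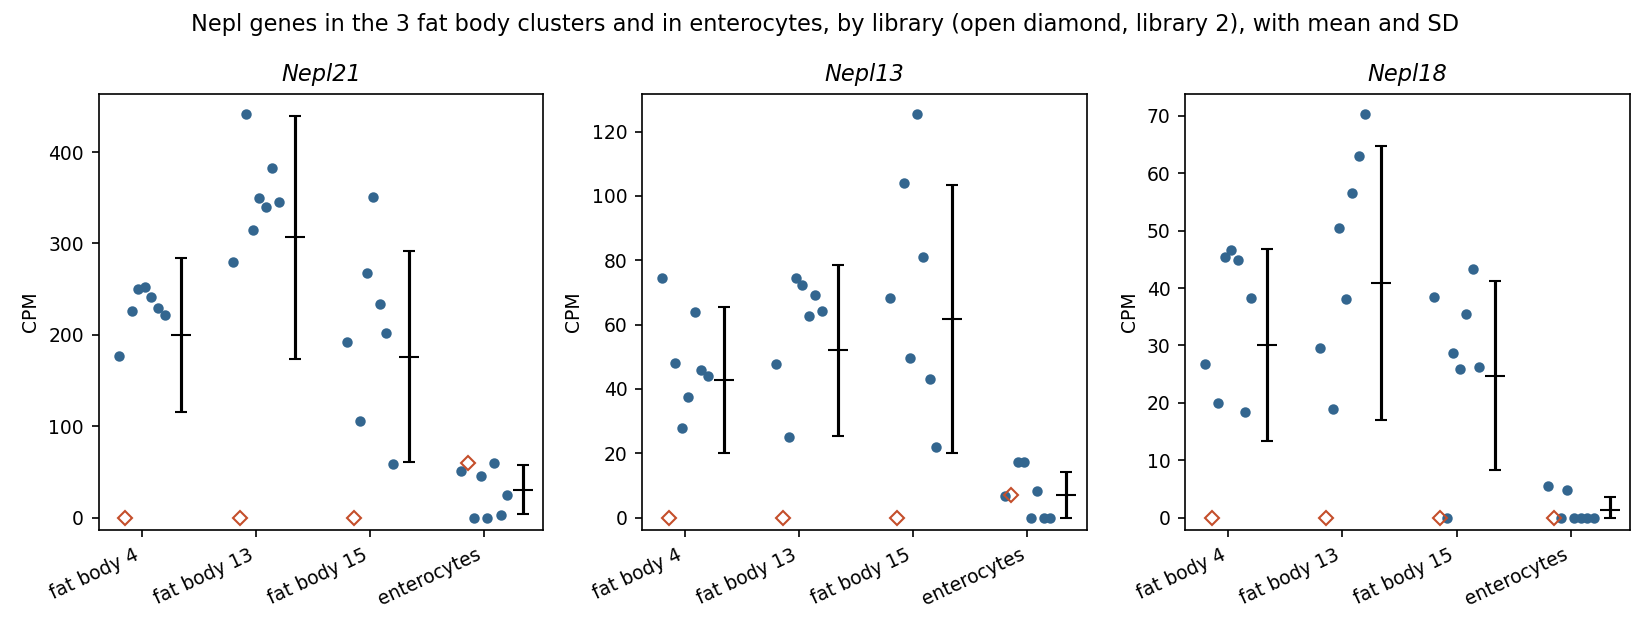
CPM of *Nepl21*, *Nepl13* and *Nepl18* (y axes) in fat body clusters 4, 13 and 15 and in enterocytes (x axes). Points are libraries, the open diamond is library 2, and the bar gives mean and SD of 8 libraries. Library 2 is at 0 in every fat body cluster for all 3 genes.

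Outside fat body the next cluster for *Nepl21* was enterocytes, at 44.2 CPM, and *Nepl13* stood at 14.1 CPM there. Library 4 gave 1508 of the 2055 enterocyte nuclei. Enterocytes also held fat body marker RNA, with the 5 markers at 27916 CPM, against 141564 CPM in fat body and 1697 CPM in neurons. Per 1000 counts of *Fbp1*, *Fbp2*, *Lsp1beta* and *Lsp2*, *Nepl21* had 2.11 counts in fat body, 1.66 in enterocytes, 1.81 in all other nuclei and 2.79 in neurons. The ratio was 11.3 in muscle, on 6.40 *Nepl21* counts, and 10.3 in intestinal stem cells, on 9.76 counts. For *Nepl13* it was 0.448 in fat body and 0.531 in enterocytes. The part of fat body RNA in the enterocyte levels was not tested.

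*Nep2* (3R, 4719458 to 4731878, minus strand) was by far highest in mixed cluster 19. The 8 libraries ran from 1080 through a median of 1238 to 1804 CPM there, so every library was high. The next clusters were mixed 16, 9 and 2, at 178, 144 and 125 CPM summed over libraries. The libraries of cluster 16 ran from 64.2 to 301 CPM. *Nep2* was above 0 in 64.9% of the 530 nuclei of cluster 19, against 5.66% of fat body nuclei. Against all other nuclei its log2 fold change in cluster 19 was 4.34 ± 0.32 (adjusted p = 9.49e-10, 10.6% of genes called higher). It was also called higher in clusters 9 (1.42, 29.3% of genes) and 2 (1.18, 21.2%). The 4 larval cuticle genes *Lcp1* to *Lcp4* summed to 195052 CPM in cluster 19, 325503 CPM in cluster 9 and 345300 CPM in cluster 2, against 5670 CPM in fat body. Mixed clusters as a whole held 77.1% of *Nep2* counts. Library 5 had 301 CPM in cluster 16, where the other libraries had 64.2 to 149 CPM, and without library 5 the summed level of cluster 16 was 91.8 CPM. In trachea *Nep2* stood at 95.2 CPM. Barcodes that occur in more than 1 library made up 25.1% of cluster 19 and 39.3% of cluster 2. Without them the call in cluster 2 was lost (0.75), while that in cluster 19 was kept. Their part in the levels was not tested.

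*Nep1* was likewise found mostly in the mixed clusters, which held 73.6% of its 835 counts. It ran from 51.6 through a median of 72.8 to 103 CPM in the libraries of cluster 9, against 0 to 9.76 CPM in fat body. It was called higher in mixed clusters 9 (log2 fold change 2.82), 2 (2.14), 8 (1.20, 9.49% of genes called higher) and 22 (1.15, 9.42%), and in neuron cluster 25 (1.65). In cluster 25 its libraries were spread from 10.6 through 85.1 to 280 CPM on 37.7 counts in all, and the call was lost without library 2 (1.27). Cluster 9 was also the deepest of these groups, with a median of 2743 counts per nucleus, against 898 in fat body.

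*Nep4* (3R, 20652567 to 20659904, minus strand) encodes a neprilysin known in flies for cleaving micropeptides that regulate calcium uptake in muscle. It was close to the limit of detection, with 65.9 counts in all nuclei, and entered none of the tests with the filter. Muscle held 0 counts, which allows up to 5.30 CPM, and fat body 1.38 CPM on 5.69 counts. Its highest cluster was myoblasts, at 9.77 CPM on 11.8 counts from 7 nuclei, with 6 of 8 libraries above 0. Library 7 gave 4.93 of these counts, and without it the level was 6.48 CPM. That is below the 7.53 CPM of mixed cluster 19, whose 5.54 counts all came from library 5, so the order rests on single libraries. Cluster 9 held 15.1 counts (3.69 CPM). A difference between fat body and muscle was not detectable at this depth.

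**Figure D5:**
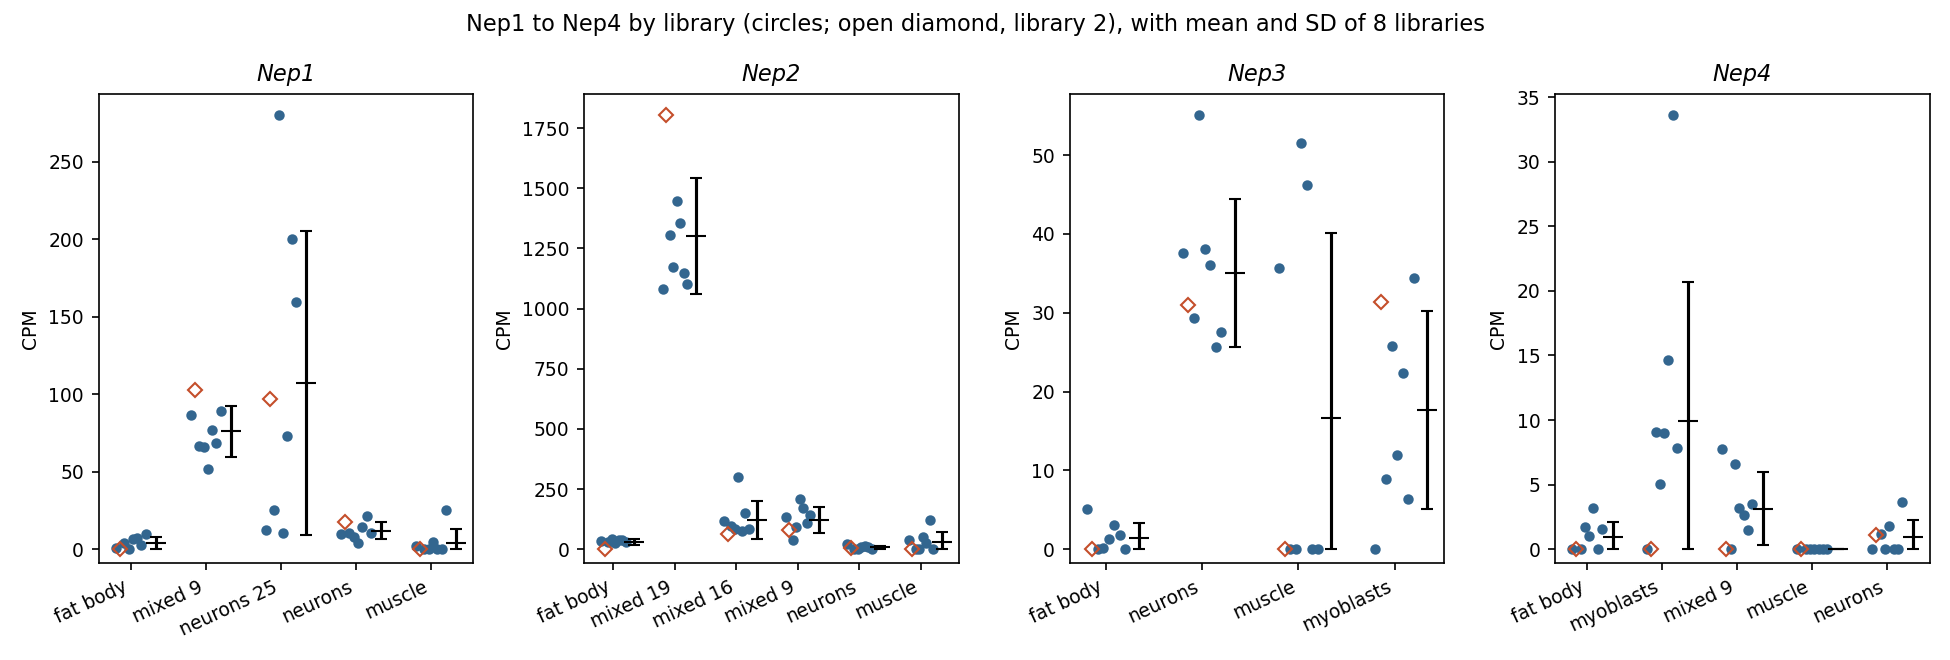
CPM of *Nep1*, *Nep2*, *Nep3* and *Nep4* (y axes) in fat body and in the clusters or tissues named on the x axes. Points are libraries, the open diamond is library 2, and the bar gives mean and SD of 8 libraries. *Nep2* is at 1080 CPM or more in every library of mixed cluster 19, and *Nep3* is at 25.7 CPM or more in every library of neurons.

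The family genes next to the members on the chromosome differed in level. Each had a higher summed level in fat body than in all other nuclei, though *Nepl17* had few counts. *Nepl18* and *Nepl21* lie in a run with *Nepl17*, *Nepl19* and *Nepl20*, and *Nepl13* lies beside *Nepl14* and *Nepl15*. Summed over libraries, *Nepl19* stood at 9.15 CPM in fat body and 1.36 CPM in all other nuclei, *Nepl20* at 4.80 and 0.817 CPM, and *Nepl17* at 0.480 CPM on 1.98 counts and 0.185 CPM. *Nepl14* stood at 19.6 CPM in fat body and 0.572 CPM in all other nuclei. *Nepl15* was called higher in fat body against all other nuclei (3.39 ± 0.63, adjusted p = 6.23e-05), at 11.3 CPM in fat body and 2.23 CPM in all other nuclei. In mixed cluster 16 it stood at 21.9 CPM, with 112 CPM in 1 library and a median of 2.15 CPM. Of the 16 other family genes in the matrix, 3 were tested by edgeR in fat body against all other nuclei. All 3 were called higher (32.0% of all genes tested were), with *Nepl3* at 1.26 ± 0.26 and *Nepl6* at an adjusted p of 1.29e-09 (6.60 with no filter). Fat body held 88.7% of the *Nepl6* counts, 37.9% of the *Nepl15* counts and 13.5% of the *Nepl3* counts. *Nepl10* was not tested in that fit, and fat body held 79.7% of its 430 counts. It was called higher in clusters 4, 13 and 15, each against all other nuclei (16.8%, 19% and 22.8% of genes were). Genes high in fat body pass the filter more easily, so no family trend is read from these calls. With no filter, 11 of the 16 were called higher and 0 lower (20.4% and 35.9% of genes were). Their median log2 fold change was 3.13, beside -0.55 over all genes. *Nepl6* overlaps *DIP-epsilon* and *Nepl19* overlaps *CG33203* on the same strand, so their counts are uncertain.

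Other peptide-cleaving enzymes did not move one way. Of 9 listed enzymes 7 were tested against all other nuclei, 3 were called higher and 2 lower (32.0% and 41.9% of all genes tested were), with a median of 0.28 beside -0.29 over all genes. *Ance-4*, of the angiotensin-converting enzyme family, was higher at 6.30, *Ance-5* was higher at 2.41 and the dipeptidyl peptidase gene *ome* was lower at -2.99. Against muscle 4 enzymes were tested, with 3 higher (*Ance-4* 5.77, *DppIII* 1.60, *Ance* 1.34) and 1 lower, beside 48.3% higher and 33.9% lower over all genes tested. Against neurons 4 were tested, with 2 higher (*Ance* 3.20 and *DppIII* 2.59) and 2 lower, of which *ome* stood at -1.60, beside 36.4% higher and 51.6% lower over all genes tested. Of 23 peptide genes in the matrix only the insulin-like peptide gene *Ilp6* passed the filter, and it was higher in fat body against muscle (6.89), neurons (6.61) and all other nuclei (4.30).

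Over the 28 clusters, the levels of *Nepl18* and *Nepl21* had a Pearson correlation of 0.86, *Nepl13* and *Nepl21* 0.81, and *Nepl13* and *Nepl18* 0.79, on log2(CPM + 1). *Nep1* and *Nep2* had 0.55 and *Nep2* and *Nep3* -0.43. The clusters share libraries, so these are descriptions. Among 7787 genes with at least 200 counts, the most alike were *sPLA2*, *CG4306* and *CG18003* for *Nepl21* (0.95 to 0.93), *tHMG2*, *CG33225* and *CG30091* for *Nepl13* (0.90 to 0.89), and *CG6067*, *CG8100* and *Cyp6g1* for *Nepl18* (0.96 to 0.90). For *Nep1* they were *CG6749*, *CG9701* and *CG10126* (0.87 to 0.85), for *Nep2* the cuticle protein gene *Cpr12A*, *Phk-3* and *Ipk2* (0.91 to 0.90), for *Nep3* *CG11155*, *CG31140* and *Frq1* (0.91 to 0.90), and for *Nep4* *CG5687*, *Cln3* and *rost* (0.76 to 0.67).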

How the data were processed

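Single-nucleus RNA-seq was analysed in 8 libraries of 1 condition. The authors counted UMIs with Cell Ranger 7.1.0 on BDGP6, subtracted ambient RNA with DecontX, which makes the deposited values expected counts that need not be whole, removed doublets (so no caller was run again), and clustered nuclei after Harmony. The deposited table of nuclei gives the library number and cluster name of each, and library numbers could not be matched to sample names. Counts were summed per group and library, rounded, and tested with edgeR 4.0.16 (quasi-likelihood, TMM, filterByExpr, Benjamini-Hochberg over all genes tested) in R 4.3.3. A call needed an adjusted p below 0.05 and an absolute log2 fold change of at least 0.54. Alternatives used DESeq2 1.42.0, other scalings, filters, nuclei and libraries. The test was checked on simulated counts of fat body against all other nuclei, with changes put only into well-counted genes. That check does not cover the low counts of the members in muscle and neurons. Other tables used Python 3.11.15, numpy 2.4.6, scipy 1.17.1 and pandas 2.3.3.

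The members, lists and tests were chosen with earlier results of these data known. Levels with each library left out were added after seeing the data. All members were named. Other family genes were named where called in a main fit of fat body or its clusters, or next to a member. Family genes called only with no filter were not all named. The 3 largest changes called per list in the main fits and the 3 genes most alike per member were also named. Positions are from BDGP6.54. Sums of the same library come from the same larvae, so library numbers pair them. The main edgeR fits did not use this pairing, and an alternative added the library as a block. The median correlation of same-numbered deviations was 0.032 for fat body against muscle, 0.021 against neurons, 0.154 against all other nuclei and 0.468 for cluster 4 against 13. Libraries are pools, so p-values measure the spread between pools, and intervals of a 0 (3 counts) cover counting error only.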

Additional observations from a re-analysis of the deposited data

Results flagged for a closer look

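Among 18 checks of a member's CPM over the 8 libraries of a group (Dixon's test of 1 value's gap to its neighbour, which chance passes in about 1 of 20 groups), 5 had a library far from the rest. *Nepl21* and *Nep2* in fat body were both at 0 CPM in library 2, with the next libraries at 212 and 24.6 CPM. *Nep2* in muscle was at 122 CPM in library 7, which has 7 muscle nuclei, with the next library at 50.3 CPM. *Nep3* in neurons was at 55.1 CPM in library 4, with the next at 38.1 CPM. *Nepl13* in all other nuclei was at 5.62 CPM in library 4, which gave most enterocyte nuclei, with the next at 2.45 CPM.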

How the results depend on the processing

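The count of members called in fat body against muscle was 0, and 5 with no filter, 2 in sums of at least 20 nuclei, 2 without libraries 2 and 4 (an alternative chosen after seeing the data) and 0 to 2 leaving out each library (2 without library 2). Against neurons it was 2, and 5, 5 and 5 in the same alternatives and 1 to 5 leaving out each library (1 without library 1, 5 without library 2). Against all other nuclei it was 4, and 2 with DESeq2, 2 without the mixed clusters and 2 to 5 leaving out each library (2 without library 4). *Nep1* and *Nep3* were not tested without the mixed clusters. For cluster 4 against 13 it was 0, and 1 with summed counts as the scaling, in sums of at least 20 nuclei and without libraries 2 and 4 (0 to 1 leaving out each). For cluster 13 against 15 it was 0, and 1 with DESeq2, in sums of at least 20 nuclei and without libraries 2 and 4 (0 to 1 leaving out each). With the library as a block (replicate block), cluster 4 against 15 gained 1 member (0 to 1 leaving out each) and cluster 4 against 13 called 45 genes, against 0 without the block. All genes called numbered 1384 against muscle and 4861 with no filter, 3286 against neurons and 7508 with no filter, and 499 for cluster 4 against 15 and 850 with no filter. For cluster 4 against 13 they were 2 with DESeq2, 19 with summed counts, 6 with no filter, 23 in sums of at least 20 nuclei and 7 without libraries 2 and 4. For cluster 13 against 15 they were 360, and 1171, 673 and 553 with no filter, in sums of at least 20 nuclei and without libraries 2 and 4. Leaving out each library gave 0 to 23 calls for cluster 4 against 13, 327 (without library 6) to 583 for cluster 4 against 15, and 181 (without library 6) to 606 (without library 2) for cluster 13 against 15. *Nep2* against all other nuclei turned to 0.21 with DESeq2 and 1.28 without the mixed clusters, stood at -1.30 and was called lower with summed counts, and leaving out each library gave -0.60 to 0.018 (0.018 without library 5). *Nepl21* in cluster 4 against 15 turned to -0.17 with summed counts and -0.068 with values under 0.5 set to 0, and *Nepl13* in cluster 13 against 15 to 0.41 with no filter, and leaving out each library gave -0.37 to 0.11 (0.11 without library 3). Spearman in place of Pearson correlation shared 9 of 21 most alike genes. Of 582 alternative values of 64 fold changes, 553 kept direction and call, 10 lost the call, 12 gained it and 7 turned. The block changed no other call of a member. Except where a value shows it, the cause was not tested. Depth limits *Nep4* everywhere and all members in muscle and in library 2 fat body.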
